A study of Mus musculus with 21 samples.

Results

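Mitosis and chromosome segregation genes were followed through liver regeneration in Mdr2 knockout mice and controls. The set held 52 genes, chosen by name for their roles in cell division with the cyclins left out, and each was read from the probe set that carried its symbol and had the highest mean signal. Of the 52 genes, 50 had such a probe set among the 12393 genes named on the array, and no value was taken for Cdca8 and Espl1. Of the 50, 25 exceeded a log2 value of 4 on at least 3 arrays and were tested with 7320 genes in all, while the other 25 lay near background on most arrays and are given as values.

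Total RNA from livers of 9-month-old male mice was measured on 21 Affymetrix arrays after a 30% partial hepatectomy. Mdr2 knockout mice (KO), of strain FVB129P2, lack the transporter encoded by Abcb4 that carries phospholipid into bile, and the resulting chronic bile duct injury makes them a model of inflammatory liver disease and liver cancer. Control mice were given as FVB129P2/FVBNJ, so genotype and strain background cannot be told apart. The lobe removed at surgery gave the day 0 sample (6 KO, 3 control), and livers were taken again on days 2 and 6 (3 per genotype and day). Every KO mouse gave a day 0 and a later sample. Among controls, mice 263 and 265 gave days 0 and 2, mouse 303 gave days 0 and 6, mouse 264 gave day 2 alone, and mice 392 and 393 gave day 6 alone. Within a group the samples were therefore separate mice.

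Hepatocytes in the adult liver are mostly quiescent and re-enter the cell cycle after tissue is removed, replicating their DNA first and dividing later. Mitotic kinases with their activators drive entry into mitosis, kinesins and microtubule-binding proteins build the spindle, kinetochore proteins attach chromosomes to it, and the anaphase-promoting complex then triggers separation and exit. Transcripts of these genes accumulate together late in the cycle, largely under the DREAM and MuvB complexes that bind promoters through the cell cycle genes homology region (CHR), whereas genes for replication are switched on earlier through E2F sites.

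Promoter windows are shown for 8 genes on which the results turn: Top2a, Smc2, Mki67 and Cdca5, whose day 6 responses differed between genotypes, Cdk1 and Cdc20, which were higher in KO at surgery, and Ube2c and Hmmr, which differed widely among the regenerating control livers. Each stretch runs from 130 bases before to 30 bases after the RefSeq start on GRCm38.p6, 5′ to 3′ along the gene's strand. Capitals mark a CHR (TTTGAA or TTCGAA) or an NF-Y box (CCAAT), on either strand.
Top2a (chr11:99024160-99024319, minus strand): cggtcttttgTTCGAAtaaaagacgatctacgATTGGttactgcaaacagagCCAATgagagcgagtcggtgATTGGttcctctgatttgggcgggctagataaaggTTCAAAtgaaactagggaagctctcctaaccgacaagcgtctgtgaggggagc
Smc2 (chr4:52439091-52439250, plus strand): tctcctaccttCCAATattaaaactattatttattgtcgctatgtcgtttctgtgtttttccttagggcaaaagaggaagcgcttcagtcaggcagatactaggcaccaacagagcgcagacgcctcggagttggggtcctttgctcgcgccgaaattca
Mki67 (chr7:135716350-135716509, minus strand): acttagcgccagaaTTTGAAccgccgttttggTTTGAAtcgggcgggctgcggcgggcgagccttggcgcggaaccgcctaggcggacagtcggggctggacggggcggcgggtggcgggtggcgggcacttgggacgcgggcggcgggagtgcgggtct
Cdca5 (chr19:6084967-6085126, plus strand): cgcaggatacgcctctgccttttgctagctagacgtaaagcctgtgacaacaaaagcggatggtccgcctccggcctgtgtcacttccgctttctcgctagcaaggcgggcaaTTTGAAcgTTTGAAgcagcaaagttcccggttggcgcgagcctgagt
Cdk1 (chr10:69352883-69353042, minus strand): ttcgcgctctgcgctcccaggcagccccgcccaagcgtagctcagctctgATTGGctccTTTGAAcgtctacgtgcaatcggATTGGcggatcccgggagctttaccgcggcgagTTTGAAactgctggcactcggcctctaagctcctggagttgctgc
Cdc20 (chr4:118437314-118437473, minus strand): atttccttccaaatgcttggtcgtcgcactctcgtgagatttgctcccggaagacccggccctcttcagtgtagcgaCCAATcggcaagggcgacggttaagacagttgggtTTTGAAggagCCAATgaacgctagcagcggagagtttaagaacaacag
Ube2c (chr2:164769799-164769958, plus strand): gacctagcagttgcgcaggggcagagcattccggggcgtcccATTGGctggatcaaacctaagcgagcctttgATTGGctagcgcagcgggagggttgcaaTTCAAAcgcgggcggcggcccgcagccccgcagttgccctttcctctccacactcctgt
Hmmr (chr11:40733408-40733567, minus strand): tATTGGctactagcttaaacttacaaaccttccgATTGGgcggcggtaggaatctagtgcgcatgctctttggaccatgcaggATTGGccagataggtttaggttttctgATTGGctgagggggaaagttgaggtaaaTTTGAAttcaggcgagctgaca
Of these 8 stretches, that of Smc2 held no whole CHR, although its longer window held 2, and those of Mki67 and Cdca5 held no NF-Y box. The longer window of Mki67 held 3 NF-Y boxes and that of Cdca5 held 0. In Cdca5 a pair of CHR copies lay next to each other just before the start, and Hmmr held 4 NF-Y boxes and 1 CHR.

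Windows from 250 bases before to 50 bases after the start were matched by symbol for 44 of the 52 genes, 47 windows in all; Pbk, Cdc25c, Stmn1, Kif20a, Aurkb, Smc4, Tpx2 and Foxm1 were not matched. A CHR on either strand was present in 36 of these windows (76.6%), against 19.2% of all 32851 windows of that table. An NF-Y box was present in 70.2% against 37.4%, and both motifs in 63.8% against 7.52%. An E2F site (TTTCCCGC, TTTCGCGC, TTTGCCGC or TTTGGCGC, either strand) was present in 4.26% against 2.26%. Matches of different motifs were counted also where they overlapped. Among windows of 18 genes for the MCM helicase and origin licensing, the order was turned, with an E2F site in 39.1% and a CHR in 30.4%. For 22 genes of DNA replication and nucleotide synthesis the shares were 23.1% and 11.5%, and for 82 other mitosis genes they were 16.1% and 45.2%. Of the 50 CHR matches in the windows of the 44 genes, 35 (70%) lay within 60 bases of the start, against 28.9% of CHR matches in all windows. Matches were counted per window. Ect2, Prc1 and Cep55 had repeated windows, so a site shared by overlapping windows was counted in each. Neither a CHR nor an NF-Y box was found in the windows of Birc5, Mad2l1, Melk, Mybl2, Nuf2, Nusap1, Pttg1 and Tacc3. A match is a stretch of letters and was not tested for binding.

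**Figure D1:**
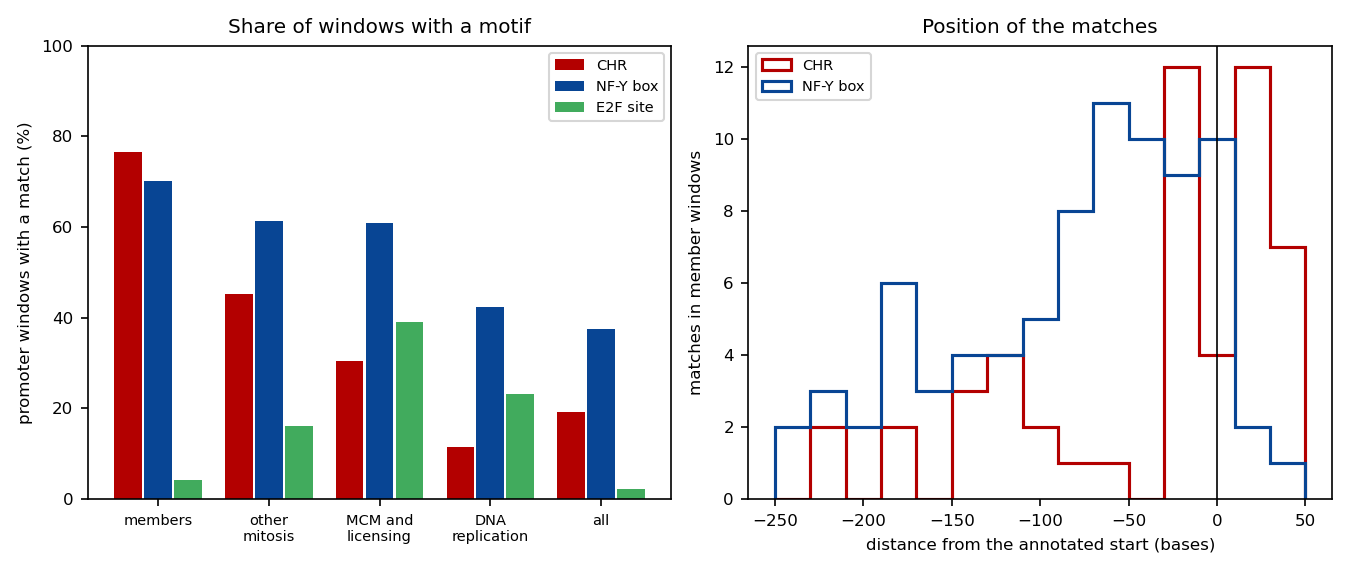
Left, percentage of promoter windows holding at least 1 match, for the mitosis genes (47 windows), 3 compared lists and all windows; bars start at 0. Right, number of CHR and NF-Y box matches in the mitosis gene windows by distance in bases from the annotated start. CHR matches were found in 76.6% of the mitosis gene windows and gathered near the start.

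Genotype was checked on the arrays through Abcb4, which lay at 7.25 to 8.96 on the 12 KO arrays, below the 9.23 to 10.33 of the 9 controls. Array medians ran from 3.8 to 4.1 on the log2 scale. The difference between 3′ and 5′ probe sets of Gapdh, which grows as RNA shortens, exceeded 1 on 3 arrays: control day 2 265 (9.5), KO day 0 337 (2.03) and control day 2 263 (1.58). All 9 tested hepatocyte markers were present, with albumin (Alb) between 14.66 and 15.12 in controls. A bulk liver sample does not tell a change in the number of dividing cells from a change in RNA per cell.

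The set as a whole had 1 dominant feature. All 25 tested genes were highest in the control liver of mouse 393 on day 6, as were 45 of the 50 measured genes, against 3.65% of all genes tested. Of the 25, 8 were tested only because control day 6 arrays exceeded 4, which favoured high values there in the count and in the averages below. The 25 genes, centred on their own means and averaged, stood at 3.53 in mouse 393, 1.61 in mouse 392 and 0.15 in mouse 303, the 3 controls of day 6. The same average was between −1.16 and −0.77 in control livers at surgery, between −0.74 and −0.51 in controls on day 2, between −0.50 and 0.80 in KO livers at surgery, between −0.78 and −0.02 in KO on day 2, and between 0.02 and 0.28 in KO on day 6. All control livers were thus below all KO livers at surgery, and on day 6 mice 392 and 393 were far above every KO liver while mouse 303 was within the KO range.

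**Figure D2:**
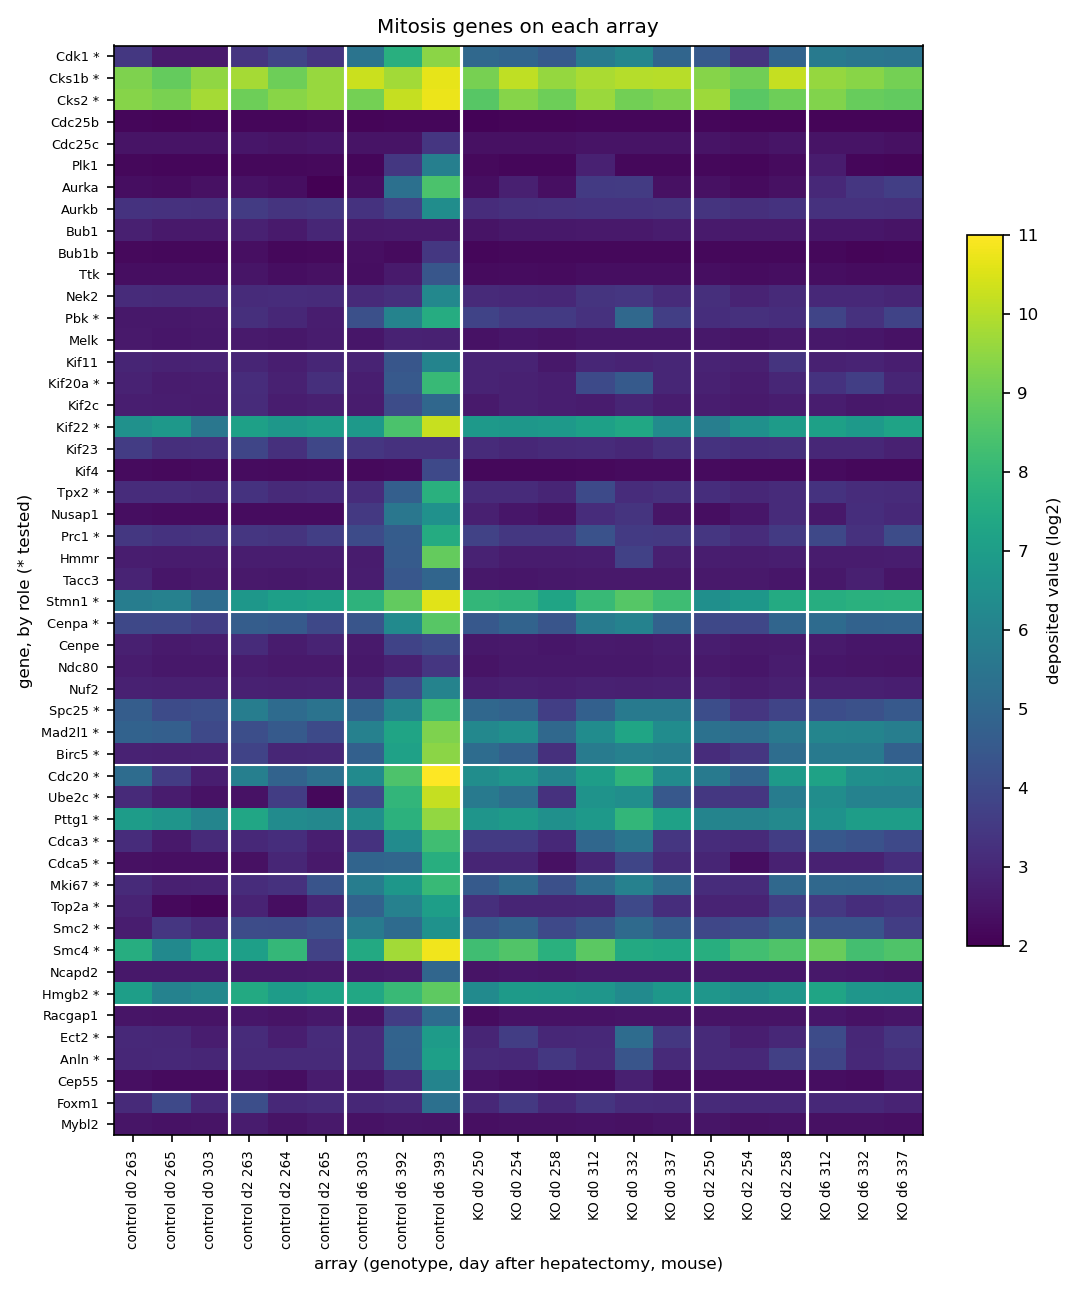
Deposited log2 values of the 50 measured genes (one per line, grouped by role, * tested) on the 21 arrays, ordered by group and mouse, with colour running from 2 to 11. Control day 6 mouse 393 is the brightest column, with mouse 392 next and mouse 303 close to the earlier controls for many genes.

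KO against control livers at surgery (day 0) compared the genotypes before any response to resection. Members of several steps of mitosis were higher in KO: 6 of the 25 tested genes passed in that direction (limma, adjusted p under 0.05 over all genes), none was lower, and 19 did not pass. Of all genes tested, 6.79% were called higher and 2.87% lower. The median log2 difference of the 25 was 0.79, against 0.018 for all genes tested, and KO and control values were fully apart in 12 of them, against 19.8% of all genes. All 6 called genes also passed the low-value filter on arrays outside these groups, as did 22 of the 25.

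Among kinases and activators, Cdk1, the kinase that drives entry into mitosis, stood at 3.46, 2.64 and 2.65 in control mice 263, 265 and 303. In the 6 KO livers it ran from 4.54 to 6.13 with a median of 4.99, so the groups did not overlap. The difference was 2.30 ± 0.57 (SE, 4.91-fold, adjusted p = 0.0150, limma), from a control group at or under 4. The mitotic kinase Pbk was at 1.22 ± 0.48 (adjusted p = 0.123), and Cks1b (0.58) and Cks2 (−0.28), small subunits that bind cyclin-dependent kinases, did not pass.

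Stmn1, a protein that destabilises microtubules, was at 5.81, 5.95 and 5.18 in the controls and between 7.26 and 8.61 (median 8.03) in KO. Every KO liver was above every control, with a difference of 2.35 ± 0.41 (SE, 5.10-fold, adjusted p = 0.000948, limma). It was the only call among the 5 tested spindle genes. A second Stmn1 probe set differed little, with means of 4.02 in control and 4.14 in KO. The chromokinesin Kif22 (0.56), the midzone kinesin Kif20a (0.57), the spindle assembly factor Tpx2 (0.14) and the midzone bundler Prc1 (0.29) did not pass.

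Mad2l1, which holds back anaphase until chromosomes are attached, was at 4.84, 4.71 and 4.0 in the controls and from 5.05 to 7.29 (median 6.38) in KO. The lowest KO liver, mouse 258, was just above the highest control, and the difference was 1.78 ± 0.50 (SE, adjusted p = 0.0300, limma). Birc5, survivin of the chromosomal passenger complex, was near background in the controls (2.84 to 2.87) and from 3.25 to 5.94 in KO. It did not pass (2.26 ± 0.74, adjusted p = 0.0620). The centromeric histone Cenpa (1.20) and the kinetochore protein Spc25 (0.64) did not pass either.

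Cdc20, the activator of the anaphase-promoting complex, was at 5.17, 3.60 and 2.75 in control mice 263, 265 and 303 and between 6.07 and 7.84 (median 6.55) in KO. All 6 KO livers were above the highest control, with a difference of 2.89 ± 0.76 (SE, 7.40-fold, adjusted p = 0.0206, limma). Ube2c, the ubiquitin-conjugating enzyme that works with that complex, did not pass (2.55 ± 0.96, adjusted p = 0.107), with KO livers between 3.27 and 6.63 and controls between 2.45 and 3.07.

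Among chromosome structure genes, Mki67, the proliferation marker that coats mitotic chromosomes, was at 3.08, 2.78 and 2.83 in controls and from 4.2 to 5.96 (median 5.14) in KO. The difference was 2.14 ± 0.47 (SE, adjusted p = 0.00620, limma). Smc2, a core subunit of condensin, was at 2.72, 3.43 and 3.11 in controls and from 3.99 to 5.12 (median 4.50) in KO. It was higher by 1.47 ± 0.29 (SE, adjusted p = 0.00232, limma). Neither gene's groups overlapped. Top2a, the topoisomerase that untangles replicated DNA, was at or under 4 on all 9 arrays and did not pass (0.80 ± 0.36, adjusted p = 0.191). Both tested cytokinesis genes missed the threshold, with Ect2 at 0.61 ± 0.58 (adjusted p = 0.607).

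The 6 KO livers were not alike at surgery. Mouse 332 held the highest KO value of 17 of the 25 genes and mouse 258 the lowest of 16. Mouse 258 also had the highest average of the 8 stellate cell and fibroblast markers (1.83) and of the 4 cholangiocyte markers (1.47). Of these markers, 6 of 8 and 2 of 4 were higher in KO on day 0, with medians of 3.35 and 1.84. Their averages ran from 0.29 to 1.83 and from 0.26 to 1.47 in KO and from −1.99 to −1.69 and from −1.16 to −0.96 in controls. Averages of the 2 tested genes of the lymphocyte list, Ptprc and Jchain, were −0.20 to 0.79 in KO and −0.66 to −0.10 in control. Ptprc had means of 7.40 in KO and 6.36 in control, and Jchain of 4.46 and 4.51. The part of other cell types in the mitosis gene differences was not tested. The count of 6 was 3 without control mouse 265 and also without control mouse 303 at surgery, and 10 in a fit of only these groups. The call of Stmn1 held under its 30 alternatives and those of Mki67 and Smc2 under the 29 in which they were tested, the filter at log2 6 having removed both, whereas Cdk1 reached an adjusted p of 0.0835, Cdc20 of 0.141 and Mad2l1 of 0.161 under at least 1 (limma).

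**Figure D3:**
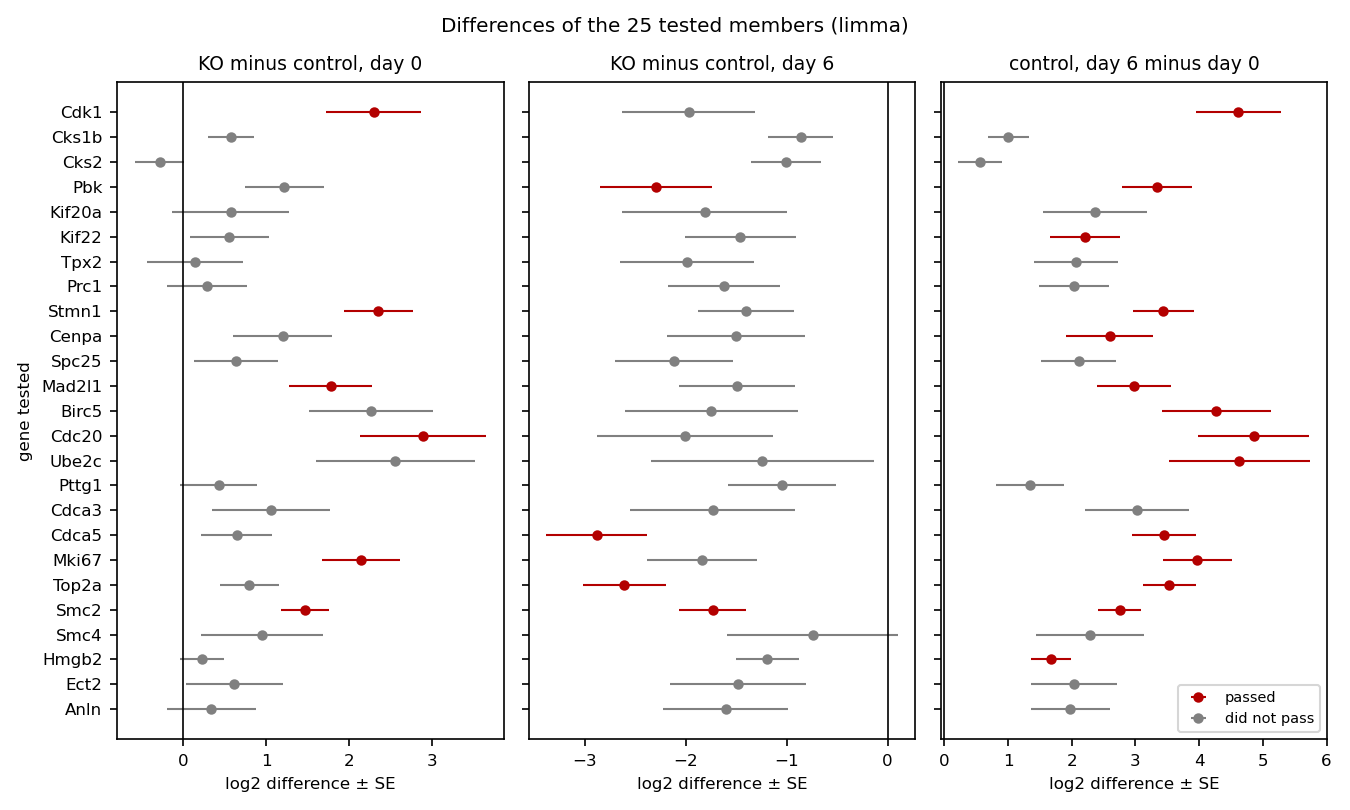
Log2 differences with their SE from limma for the 25 tested genes in 3 comparisons; red points passed an adjusted p of 0.05 over all genes. At surgery 6 genes were higher in KO, on day 6 there were 4 lower in KO, and 14 were higher in controls on day 6 than at surgery. Pbk, Cdca5 and Top2a, called in both day 6 comparisons, passed the low-value filter only through control day 6.

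Control day 2 against day 0 compared the early response in controls. No member passed: 0 of 25 were higher and 0 lower by limma, with 3 at an unadjusted p under 0.05, against 5.23% of all genes called higher and 4.28% lower. The median difference was 0.30. The nearest was Smc2, at 4.08, 4.04 and 4.27 on day 2 in mice 263, 264 and 265, all above the day 0 values given above (1.04 ± 0.33, SE, adjusted p = 0.0547, limma). Stmn1 came next, at 6.78, 7.07 and 7.2, likewise above all day 0 controls (1.37 ± 0.48, adjusted p = 0.0749, limma). Its second probe set had means of 4.02 at surgery and 4.03 on day 2. Groups were apart in 9 of the 25 genes, against 25.7% of all genes. With the mouse as a random replicate block 1 member was called higher, and 1 with quantile normalization. Leaving out control mouse 393 on day 6 gave 2, and leaving out control mouse 303 or 392 on day 6, control mouse 263 at surgery or KO mouse 258 or 332 at surgery gave 1 each. The day 2 control livers include the arrays with Gapdh differences of 9.5 and 1.58. Both tested genes of the neutrophil list, S100a8 and S100a9, were higher on day 2, with a median of 4.14. Of the others on the array, Camp, Mpo, Elane and Ltf stayed between 2.12 and 2.45 on day 2, and Ngp ran from 2.16 to 5.33. Also higher were 2 of 8 stellate cell and fibroblast markers and 1 of 9 macrophage markers. Lower were 1 of 9 hepatocyte and 1 of 2 erythroid markers. The part of RNA quality and of other cell types in the mitosis gene values was not tested.

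KO day 2 against day 0 likewise gave 0 members higher and 0 lower by limma, with 3 at an unadjusted p under 0.05, and 0% of all genes passed in either direction. The members' median was −0.60, with 23 of 25 below 0, among them Mki67 (−1.28 ± 0.47, SE, adjusted p = 0.634) and Birc5 (−1.19 ± 0.74). The 3 mice went different ways. Between surgery and day 2 the median change of the 25 genes was −0.50 in mouse 250, −0.76 in mouse 254 and 0.36 in mouse 258, the mouse with the lowest KO average at surgery. In mouse 258 Ube2c went from 3.27 to 5.77 and Birc5 from 3.25 to 5.23, while in mouse 250 Ube2c went from 5.68 to 3.46 and Birc5 from 5.18 to 3.14.

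KO against control on day 2 gave 0 members higher and 0 lower by limma, with 2 at an unadjusted p under 0.05, against 2.75% and 2.96% of all genes, and a median of 0.05. The nearest was Spc25, a subunit of the NDC80 complex of the kinetochore, at 4.12, 3.43 and 3.85 in KO and 5.81, 5.15 and 5.43 in control. These groups did not overlap (−1.66 ± 0.58, SE, adjusted p = 0.0947, limma). Groups were apart in 3 of the 25 genes, against 20.1% of all genes. The control arrays of mice 263 and 265 on day 2 had Gapdh differences of 1.58 and 9.5, whose part was not tested. Leaving out control mouse 264 on day 2 gave 1 call, higher in KO, and leaving out control mouse 303 or 393 on day 6 gave 1 call, lower in KO. The day 2 response, which compares the change from surgery between genotypes, called 0 higher and 0 lower by limma (4 at an unadjusted p under 0.05; 0% of all genes in either direction), with a median of −0.82. Without control mouse 393 on day 6 it called 1, and it also called 1 when the model held no other groups than these 4.

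Control day 6 against day 0 held the strongest change of the set. In controls 14 of 25 tested genes rose, none fell and 11 did not pass, against 2.12% of all genes called higher and 0.738% lower. The members' median was 2.59, against 0.003 for all genes, with groups apart for 20 members and for 23.4% of all genes. Of the 25 genes, 8 passed the low-value filter only through control day 6 arrays and so had to differ there: Pbk, Kif20a, Tpx2, Prc1, Cdca5, Top2a, Ect2 and Anln. Among the other 17, 11 rose, with a median of 2.75.

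Cdk1 reached 5.47, 7.69 and 9.44 in control mice 303, 392 and 393, each above all 3 day 0 controls. It rose by 4.62 ± 0.66 (SE, 24.5-fold, adjusted p = 0.00109, limma) from a group near background. Pbk reached 4.2, 6.03 and 7.57, against 2.57 to 2.61 at surgery, and rose by 3.34 ± 0.55 (SE, adjusted p = 0.00311). The groups of Cdk1 were apart, while Pbk was tested only through control day 6. Cks1b did not pass (1.0 ± 0.32, adjusted p = 0.105), nor did Cks2 (0.56 ± 0.35), both high on every array.

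Of the spindle genes, Stmn1 was at 7.82, 8.85 and 10.58 on day 6 and rose by 3.44 ± 0.48 (SE, adjusted p = 0.000802, limma). Its second probe set had means of 4.02 at surgery and 5.02 on day 6. Kif22 was at 6.87, 8.44 and 10.26 in mice 303, 392 and 393 against 5.58 to 6.81 at surgery. It rose by 2.21 ± 0.55 (SE, adjusted p = 0.0356), a call that was lost under 9 of its 31 alternatives, including without any one of the 3 day 0 controls or without mouse 392 or 393. Prc1 (2.03), Tpx2 (2.07) and Kif20a (2.36) did not pass, and Tpx2 and Kif20a overlapped between the days because of mouse 303.

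Among kinetochore and checkpoint genes, Birc5 was at 4.77, 7.16 and 9.45 and rose by 4.27 ± 0.86 (SE, adjusted p = 0.0103, limma). Mad2l1 was at 5.96, 7.27 and 9.26 and rose by 2.98 ± 0.58 (adjusted p = 0.00984). Cenpa was at 4.37, 6.30 and 8.65, against 3.94, 3.93 and 3.67 at surgery, and passed by a small margin (2.59 ± 0.68, adjusted p = 0.0487), a call kept under 6 of 30 alternatives. All 3 genes kept the same order of mice, and their day 6 values stayed above every day 0 control. Spc25 came near (2.11 ± 0.58, adjusted p = 0.0590).

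Cdc20 was at 6.31, 8.48 and 11.30 in mice 303, 392 and 393 and rose by 4.86 ± 0.87 (SE, 29.0-fold, adjusted p = 0.00601, limma). Its probe set, like those used for Kif22 and Hmgb2, is of a type that may share sequence with other transcripts. Those used for Stmn1, Pbk, Prc1, Pttg1 and Cks2 are of a related type that may match several transcripts. A second Cdc20 probe set had means of 3.32 at surgery and 7.82 on day 6, and another had means of 2.27 and 3.38. Ube2c was at 3.97, 7.91 and 10.22 and rose by 4.63 ± 1.11 (adjusted p = 0.0282), a call kept under 23 of 31 alternatives. Cdca5, sororin, which protects sister chromatid cohesion, was at 4.89, 4.97 and 7.63 against 2.37 to 2.40 at surgery and rose by 3.45 ± 0.50 (adjusted p = 0.00115). The groups of Cdc20 and Ube2c were apart, while Cdca5 was tested only through control day 6. A second Cdca5 probe set had means of 2.28 at surgery and 2.82 on day 6. Cdca3 just missed (3.02 ± 0.81, adjusted p = 0.0516), and Pttg1, securin, did not pass (1.34 ± 0.54, adjusted p = 0.204).

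The 3 smallest adjusted p-values of the set were among chromosome structure genes. Top2a was at 4.82, 5.94 and 7.05 in mice 303, 392 and 393 against 2.11 to 2.88 at surgery, and rose by 3.53 ± 0.41 (SE, 11.6-fold, adjusted p = 0.000242, limma). A second Top2a probe set stayed near background, with a mean of 2.19 in controls both at surgery and on day 6, and of 2.15 in KO on day 6. Smc2 was at 5.76, 5.15 and 6.60 and rose by 2.75 ± 0.33 (adjusted p = 0.000242). Mki67 was at 5.81, 6.75 and 8.05 and rose by 3.97 ± 0.54 (adjusted p = 0.000751). In these genes mouse 303 was well above the day 0 livers, and in Smc2 it was above mouse 392. Hmgb2, a DNA-bending protein, was at 7.40, 8.10 and 8.75, against 7.04, 5.98 and 6.21 at surgery, and rose by 1.67 ± 0.31 (adjusted p = 0.00713), while the condensin subunit Smc4 did not pass (2.29 ± 0.84, adjusted p = 0.171). The cytokinesis genes Ect2 (2.04 ± 0.67, adjusted p = 0.122) and Anln (1.98 ± 0.62, adjusted p = 0.0975), an actin-binding scaffold of the cleavage furrow, did not pass.

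Control day 6 against day 2, which shares the day 6 livers with the comparison above, called 10 of 25 higher and 0 lower, against 1.07% and 0.874% of all genes, with a median of 2.06. Of the 17 members that passed the low-value filter without control day 6, 7 were called, and the other 3 calls, Pbk, Cdca5 and Top2a, are of genes the filter let in only through those livers. The 10 were Cdk1 (4.0 ± 0.66, SE), Pbk (2.96), Stmn1 (2.07), Mad2l1 (3.25), Birc5 (3.87), Ube2c (4.62), Cdca5 (3.17), Mki67 (3.28), Top2a (3.20 ± 0.41, adjusted p = 0.000595) and Smc2 (1.71). On day 2 mice 263, 264 and 265 had Cdk1 at 3.38, 3.83 and 3.39, Mad2l1 at 4.17, 4.55 and 4.02 and Birc5 at 3.8, 2.96 and 3.01. They had Ube2c at 2.43, 3.62 and 2.18 and Mki67 at 3.14, 3.27 and 4.35. All these values were below those of the 3 day 6 controls. Without the 3 arrays of high Gapdh difference, which leaves mouse 264 as the single day 2 control, 1 was called, Top2a, one of the genes let in by the filter.

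The 3 control livers of day 6 differed widely among themselves. In 23 of the 25 tested genes the order was 393, 392, 303 from high to low, against 15.8% of all genes. Every one of the 25 genes was above all 6 earlier control arrays in mouse 393, 24 were so in mouse 392, and 14 in mouse 303. Of all genes, 10.2%, 14.2% and 13.1% were so in mice 393, 392 and 303. The 8 genes tested only through control day 6 arrays are among these 25, and over all 50 measured genes the counts were 46 in mouse 393, 41 in mouse 392 and 16 (32%) in mouse 303. In mouse 303, 6 of the 25 genes exceeded every earlier control by over 1, against 2.39% of all genes. They were Cdca5 (by 1.92), Top2a (1.88), Cdk1 (1.64), Smc2 (1.49), Mki67 (1.46) and Mad2l1 (1.12). The spindle and cytokinesis genes Tpx2 (3.13), Kif20a (2.77), Ect2 (3.06) and Anln (3.06) were in mouse 303 at the level of the earlier controls, and in mouse 393 they reached 7.70, 8.07, 6.95 and 7.07. Within mouse 303 itself, 24 of 25 genes were higher on day 6 than at surgery, by a median of 1.19, among them Cdc20 (3.56) and Mki67 (2.98). Over all 50 measured genes the median change in that mouse was 0.14.

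**Figure D4:**
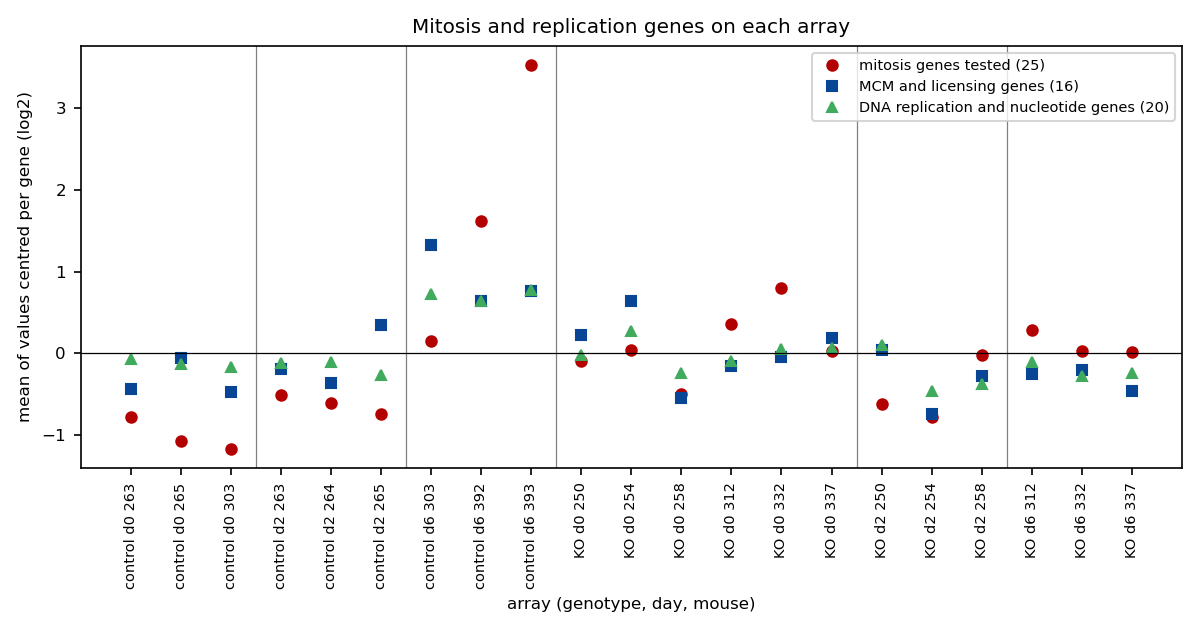
Mean of values centred per gene for the 25 tested mitosis genes, 16 MCM and licensing genes and 20 replication genes on each of the 21 arrays, grouped by genotype and day. In control day 6 mouse 303 the MCM average (1.33) is above the mitosis average (0.15), and in mouse 393 the order is turned (0.76 and 3.53).

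The replication lists did not follow the same order of mice. The 16 MCM and licensing genes averaged 1.33 in mouse 303, the highest of all 21 arrays, 0.64 in mouse 392 and 0.76 in mouse 393. The 20 replication and nucleotide genes averaged 0.73, 0.64 and 0.78. That order of mice, 393, 392, 303, held for 1 of the 16 and 5 of the 20. In the day 6 against day 0 comparison 5 of 16 and 6 of 20 rose and none fell, with medians of 1.27 and 0.55, and of 35 other mitosis genes 4 rose with a median of 0.23. Those 4 were the passenger complex scaffold Incenp (2.15), the centromere protein Cenpq (1.24), the condensin II subunit Ncapg2 (1.28) and the spindle protein Ckap2 (3.90). Mouse 303 also had the highest average of the 9 macrophage markers (2.46, against −0.45 in mouse 393 and 1.11 in mouse 392). Its average of the 2 tested genes of the lymphocyte list, Ptprc and Jchain, was likewise the highest (0.92, against −1.31 and 0.06). In the 3 day 6 controls Ptprc ran from 5.99 to 9.39 and Jchain from 2.99 to 4.06. The other listed lymphocyte genes on the array, such as Cd3e (2.53 to 2.61) and Cd79a (2.16 to 2.19), stayed under 4 in these livers. The Gapdh difference of mouse 303 was 0.94, against 0.08 and −0.03. The part of these in the differences between the mice was not tested.

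Without control day 6 mouse 303 the count against day 0 went from 14 to 23 and against day 2 from 10 to 22. Without control day 0 mouse 265 the first was 9. When the model held nothing but the groups compared, both counts were 0. With the mouse as a fixed replicate block both were 0 too, where the day 6 against day 0 difference rests on mouse 303 alone, since mice 392 and 393 have no day 0 sample.

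The 25 measured genes that were not tested repeated this order at lower levels. Of them, 20 were highest in mouse 393, 9 exceeded 4 on no array and 15 exceeded 4 only in control day 6 livers. Aurka, the kinase that matures centrosomes, was at 2.33, 5.32 and 8.45 in mice 303, 392 and 393, and at most 3.66 on the other 18 arrays. Hmmr, a spindle-associated hyaluronan receptor, was at 2.69, 4.60 and 8.86, and at most 3.73 elsewhere. Both were under 4 in mouse 303 and above it in mice 392 and 393. Plk1, the polo-like kinase, was at 2.16, 3.45 and 5.88, and Aurkb, the passenger complex kinase, at 3.33, 3.75 and 6.42. The spindle motor Kif11 (2.89, 4.40 and 6.07), the microtubule binder Nusap1 (3.51, 5.57 and 6.54) and the kinetochore protein Nuf2 (2.83, 3.99 and 6.02) had the same order.

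Further genes exceeded 4 in mouse 393 alone, among them Nek2, a centrosome kinase (6.19), Cep55, which acts in abscission (6.07), and Ncapd2, of condensin (4.98). In mouse 392 they were at 3.20, 3.07 and 2.64. Foxm1, a transcription factor that drives many mitotic genes, was at 5.31 in mouse 393, 3.07 in mouse 392 and 4.17 in control mouse 263 on day 2, an array with a high Gapdh difference. Kif2c (5.0), Tacc3 (4.93), Racgap1 (5.15), Ttk (4.40) and Cenpe (4.10) also passed 4 in mouse 393, whereas Cdc25c (3.41), Bub1b (3.47), Ndc80 (3.43) and Kif4 (3.99) stayed under it. Values stayed between 2.10 and 3.90 on every array for Cdc25b, Bub1, Melk, Kif23 and Mybl2, whose highest array was another than mouse 393. These are the values of the probe set used for each gene. A second Bub1 probe set had means of 2.43, 2.45 and 3.71 in controls on days 0, 2 and 6, against 2.64 on day 6 for the one used.

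**Figure D5:**
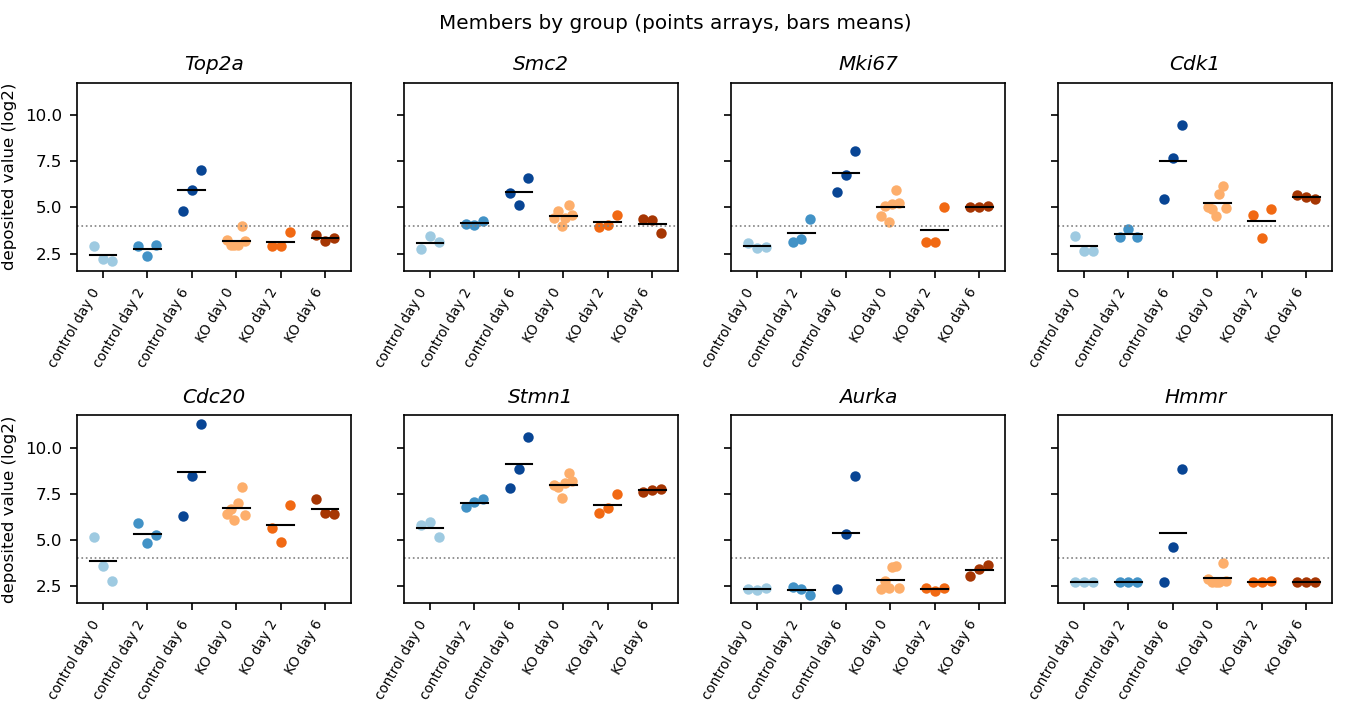
Deposited log2 values of 8 genes by group; points are arrays (6 for KO day 0, 3 for each other group), bars are group means and the dotted line is the filter level of 4. Top2a, Smc2, Mki67 and Cdk1 are raised in all 3 control day 6 livers, while Aurka and Hmmr are raised in mice 392 and 393 and near background in mouse 303.

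KO day 6 against day 0 gave 0 members higher and 0 lower by limma, with 0 at an unadjusted p under 0.05, against 0.137% of all genes called higher and 0% lower. The median was −0.04, with 11 genes above 0 and 14 below, and no member's groups were apart (3.5% of all genes were). Mki67 averaged 5.03 on both days, and its day 6 values in mice 312, 332 and 337 were 5.03, 5.0 and 5.07. Cdk1 stood at 5.68, 5.54 and 5.47 on day 6, within the range of KO livers at surgery, and Cdc20 at 7.2, 6.47 and 6.40 likewise. Within single mice the median change was −0.14 in mouse 312, −0.87 in mouse 332, which had the highest KO levels at surgery, and −0.03 in mouse 337. The KO day 6 against day 2 comparison called 0 higher and 0 lower by limma (1 at an unadjusted p under 0.05), against 0.123% and 0% of all genes, with a median of 0.49. Ube2c was at 6.40, 5.99 and 5.99 on day 6 and 3.46, 3.43 and 5.77 on day 2 (1.91 ± 1.11, adjusted p = 0.999, limma).

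KO against control on day 6 compared the genotypes late in regeneration. All 25 tested genes had a lower mean in KO, with a median of −1.62 against −0.027 for all genes, but 4 passed: Pbk, Cdca5, Top2a and Smc2. None was higher, and 21 did not pass, against 1.24% of all genes called higher and 0.492% lower. In 9 genes KO and control values were fully apart, against 19.5% of all genes. Pbk, Cdca5 and Top2a were at or under 4 in all KO livers of day 6 and passed the low-value filter only through control day 6. Of the 16 genes that passed it on arrays outside these groups, 1 was called, Smc2. The median of the 16 was −1.48. Markers of other cell types differed in the same comparison: 1 of 8 stellate cell and fibroblast markers and 1 of 4 cholangiocyte markers were higher in KO. Of 9 macrophage markers 2 were lower and none was higher, with a median of −0.18. Marco (means of 3.08 in KO and 8.47 in control) and Cd163 (2.49 and 6.59) were low in KO. Lyz2 (11.21 and 9.77) and Cd68 (7.37 and 5.89) went the other way. Cd163 was already lower at surgery, at 2.46 to 2.58 in KO and 5.34 to 6.36 in control. The average of the macrophage markers ran from −0.79 to 0.94 in KO and from −0.45 to 2.46 in controls, that of the stellate markers from −0.002 to 1.71 and from −1.51 to −0.80, and that of the cholangiocyte markers from −0.15 to 0.63 and from −1.13 to −0.63. Their part in the result was not tested.

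Top2a was at 3.49, 3.17 and 3.33 in KO mice 312, 332 and 337 and at 4.82, 5.94 and 7.05 in control mice 303, 392 and 393. KO was lower by 2.61 on the log2 scale (−2.61 ± 0.41, SE, 6.09-fold, adjusted p = 0.00138, limma). Cdca5 was at 2.83, 2.84 and 3.18 in KO and at −2.88 ± 0.50 relative to control (7.36-fold, adjusted p = 0.00348). Smc2 was at 4.35, 4.34 and 3.62 in KO and at −1.73 ± 0.33 (adjusted p = 0.00765). Pbk was at 3.83, 3.29 and 3.8 in KO and at −2.29 ± 0.55 (adjusted p = 0.0371). Values of Smc2 did not overlap. In Top2a and Cdca5 the 3 control livers of day 6 were the only arrays above 4, so the low-value filter itself required them to be above the KO livers, and for Pbk it favoured this.

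The other genes with groups apart did not pass. They were Hmgb2 (−1.19 ± 0.31, SE, adjusted p = 0.0568, limma), Spc25 (−2.12 ± 0.58, adjusted p = 0.0807), Mki67 (−1.84 ± 0.54, adjusted p = 0.112), Stmn1 (−1.40) and Cks1b (−0.86). Cdk1 (−1.97 ± 0.66, adjusted p = 0.168) and Cdc20 (−2.01 ± 0.87, adjusted p = 0.336) overlapped, since mouse 303, at 5.47 and 6.31, was no higher than the lowest KO liver. For Ube2c, Birc5, Cdca3 and Cenpa mouse 303 was also within or under the KO values. It was under all 3 KO livers in 7 of the 25 genes and in 2021 of all 7320 genes, a similar share. In the cytokinesis list Anln was nearest (−1.60 ± 0.62, adjusted p = 0.258).

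The count of 4 moved with single livers. Without control mouse 303 it was 20, without control mouse 393 it was 2, and without KO mouse 337 it was 2. It was 0 when the model held no other groups, and 0 with the low-value filter raised to log2 6, which left 11 members and removed all 4 called genes. The calls of Top2a and Cdca5 held under all their alternatives but the one that dropped the other groups. For Smc2 the highest adjusted p was 0.181 and for Pbk 0.332 (limma). Among the compared lists 4 of 16 MCM and licensing genes, 3 of 20 replication genes and 2 of 35 other mitosis genes, Incenp (−1.76) and Cenpq (−1.28), were lower in KO on day 6, and none was higher. In control mouse 303 on day 6, 14 of the 16 MCM and licensing genes and 18 of the 20 replication genes were above all KO livers of that day, as were 9 of the 25 mitosis genes and 2591 of all 7320 genes.

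The day 6 response compared the change from surgery to day 6 between genotypes, in a test of the difference itself. The response was smaller in KO for 5 of 25 genes, larger for none, and 20 did not pass, against 0.0137% of all genes called higher and 0.15% lower. The members' median was −2.76, against −0.048 for all genes, and 22 of 25 had an unadjusted p under 0.05. Of the 12 members that passed the low-value filter on arrays outside these 4 groups, 2 were called, Stmn1 and Smc2. The median of the 12 was −2.36. This comparison uses the same livers as those above.

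Smc2 differed in response by −3.20 ± 0.44 (SE, adjusted p = 0.00481, limma). It went from a mean of 3.09 to 5.84 in controls and from 4.55 to 4.10 in KO. Top2a differed by −3.40 ± 0.54 (adjusted p = 0.00923), going from 2.40 to 5.94 in controls and from 3.20 to 3.33 in KO. Both genes rose in controls, and neither passed in KO.

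Stmn1 differed by −3.75 ± 0.63 (SE, adjusted p = 0.0127, limma), from 5.65 to 9.08 in controls and from 8.0 to 7.68 in KO. Its second probe set went from 4.02 to 5.02 in controls and from 4.14 to 3.95 in KO. Mki67 differed by −3.97 ± 0.72 (adjusted p = 0.0239), from 2.90 to 6.87 in controls and at 5.03 on both days in KO. Cdca5 differed by −3.52 ± 0.66 (adjusted p = 0.0262), from 2.38 to 5.83 in controls and from 3.03 to 2.95 in KO. For each of these genes part of the difference in response lay at surgery, where the KO mean was above the control mean. That day 0 difference passed for Stmn1, Mki67 and Smc2. It did not pass for Top2a (means of 3.20 in KO and 2.40 in control) or Cdca5 (3.03 and 2.38), both near background at surgery. The next smallest p-values were those of Cdk1 (−4.27 ± 0.87, adjusted p = 0.0658), Pbk (−3.51 ± 0.73, adjusted p = 0.0664), Mad2l1 (−3.27 ± 0.77, adjusted p = 0.132) and Cdc20 (−4.89 ± 1.16, adjusted p = 0.132).

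The count of 5 was 18 without control mouse 303 on day 6 and 1 without the day 0 sample of that mouse. It was 2 without KO mouse 312 on day 6, and 3 without KO mouse 332 or 337 on day 6 or control mouse 263 or 265 at surgery. The call of Smc2 held under all its alternatives, that of Top2a in all but the one without control mouse 303 at surgery (adjusted p = 0.0526, limma), and that of Stmn1 was lost with the mean of its probe sets, without KO mouse 312 on day 6 and without control mouse 303 at surgery (highest adjusted p = 0.0790, limma). The call of Mki67 was kept under 19 of 29 alternatives and that of Cdca5 under 19 of 28.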

How the data were processed

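RNA from 21 liver samples of 12 mice was hybridised to 1 Affymetrix array each. The deposited values are log2 expression per probe set, made by the authors with GCRMA per the submitters' processing notes, which name no version. GCRMA corrects background and normalizes across arrays, so values near 2 to 4 are background and differences from them are compressed. Of 22690 probe sets, 20380 had 1 gene symbol, 691 several, 1555 none and 64 were array controls. Each of 12393 genes was read from its probe set with the highest mean, and 7320 genes above log2 4 on at least 3 arrays were tested.

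Differences were tested with limma 3.58.1 in R 4.3.3 (lmFit and eBayes, 6 group means over all 21 arrays, 15 residual degrees of freedom, two-sided), and a gene was called at a Benjamini-Hochberg adjusted p under 0.05 over all tested genes. The main fit was tested on simulated data, and its alternatives were not. Arrays are few, which limits the precision. Samples with 1 number came from 1 mouse. Over these 9 pairs the deviations from group means correlated between −0.0568 and 0.303 (median 0.119, 5 above 0.1, against a median of −0.0107 for other pairs), and the random block correlation was 0.108. The main design had no block, and a random or fixed replicate block was an alternative. Others were other filters, probe set means, quantile normalization, median centring, robust moderation and fits of only the groups compared. Leaving out each array, or the 3 arrays with a high Gapdh difference, completed them. Counts of alternatives that kept a call include leaving out arrays of groups outside the comparison.

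The members and all lists were chosen with earlier results of these data known. Any member may be named. The rule took values in the samples for members that passed, at most 4 per comparison and role, printed singly or as a range (for KO day 0 with the median), and the member with the smallest p stands for a role in which none passed. Of other mitosis genes up to 4 called ones are named per comparison. Promoter windows came from RefSeq on GRCm38.p6. Tables and figures used Python 3.11.15, pandas 2.3.3 and matplotlib 3.10.9.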

Additional observations from a re-analysis of the deposited data

Results flagged for a closer look

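Among the 6 KO livers at surgery, 1 liver lay far from the other 5 in 5 of the 25 tested genes, as the gap to its nearest neighbour divided by the range of the group. Mouse 332 was the highest in Top2a (0.738), Pbk (0.701), Anln (0.694) and Ect2 (0.687), and mouse 312 in Tpx2 (0.71). Chance alone marks about 1 in 20 such groups, and genes of 1 liver are not independent. The change from surgery to day 6 differed between KO and control livers by the test of that difference in Mki67 (−3.97), Stmn1 (−3.75), Cdca5 (−3.52), Top2a (−3.4) and Smc2 (−3.2), each a log2 difference of KO minus control. Of these, Stmn1 and Smc2 also passed the low-value filter on arrays outside the groups compared. Top2a and Cdca5 passed it only through control day 6, the group where they were high, so their differences are no independent support.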

How the results depend on the processing

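Counts of called mitosis genes kept their direction under all alternatives where both fits made calls, and their size moved as follows. In fits of only the groups compared, 10 were called for KO against control on day 0, 0 on day 6, 0 for control day 6 against day 0, 0 against day 2, and 1 for the day 2 response. A filter at log2 6 gave 0 for KO against control on day 6, 7 and 4 for control day 6 against days 0 and 2, and 1 for the day 6 response. That response gave 3 without a filter, 2 with probe set means and 3 without the arrays of high Gapdh difference, which gave 1 for control day 6 against day 2. The random replicate block gave 1 for control day 2 against day 0, as did quantile normalization, and the fixed replicate block gave 0 for control day 6 against day 0 and against day 2. The blocks moved no other count by over 1.5 times. Leaving out single arrays gave 3 to 9 calls for KO against control on day 0, 0 to 1 on day 2 and 2 to 20 on day 6. It gave 0 to 2 for control day 2 against day 0, 9 to 23 for control day 6 against day 0 and 7 to 22 against day 2. For the responses it gave 0 to 1 on day 2 and 1 to 18 on day 6, and for the KO time comparisons 0 throughout. A filter leaves fewer genes, and fewer samples leave fewer degrees of freedom; for the other settings the cause was not tested. Centring arrays on their medians shifted the median of all genes to −0.118 (KO against control, day 0), −0.147 (day 2), −0.205 (day 6), −0.142 (KO day 6 against day 0) and −0.148 (KO day 6 against day 2). Of 1163 repeats of single gene calls, 1000 were kept and 163 were lost. Many repeats left out an array of a group outside the comparison, which keeps the compared means and changes only the shared spread and adjustment. The kept share therefore overstates how firm the calls are. Signal near background limits the 25 untested genes and the low side of many differences.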
